A study of Mus musculus with 50 samples.

Results

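Astrocyte genes are described here as a set of 35 genes, chosen by name, that are known from astrocytes of the adult brain, although several, such as Vim, Nes, Sox2 and Mt1, are also expressed by other cells. They were measured in mouse hippocampus on 10 two-color Agilent arrays, where 49 of 41174 probes matched them, so that they make up 35 of the 34541 genes on the array, counting a probe without a symbol as a gene of its own. The set was ordered by role into water and ion transport, gap junctions, glutamate and amino acid handling, metabolic enzymes, secreted proteins, intermediate filaments, transcription regulators, receptors and metallothioneins.

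The study asked which genes differ in the hippocampus between wild-type (WT) and transgenic (TG) mice. WT mice were male C57/BL6j. TG mice were male as well, on the same C57/BL6j background, and over-expressed δC-DCLK-short, a constitutively active splice variant made from the doublecortin-like kinase 1 gene; the labels call them DLCK transgenic. Mice of both groups were housed alone before both hippocampi of each were taken whole, and their age and the promoter of the transgene are not given in the sources used here. Each array carried the RNA of 1 WT and 1 TG mouse, in Cy3 and Cy5, and each of the 5 WT mice (numbered WT1, WT3, WT4, WT5 and WT6) and 5 TG mice (TG1 to TG5) was on 2 arrays, once in each dye.

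Astrocytes take up glutamate from the synaptic cleft and turn it into glutamine, clear potassium, move water at their endfeet on blood vessels, and are coupled to each other by gap junctions. They secrete lipoproteins and matrix proteins that act on synapses. In the dentate gyrus some of the same genes are also expressed by the radial glia-like stem cells of the adult hippocampus. On injury, astrocytes raise their intermediate filaments and metallothioneins, which are small cysteine-rich proteins that bind zinc and copper.

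All directions are given as labelled, and the labels are in doubt. The 2 channels of a mouse should share that mouse's deviations from the other mice. Over present probes (those above the negative controls in both channels of all arrays), the median correlation of these deviations over the 10 mice was 0.21 as labelled and 0.30 after the arrays with WT in Cy3 and those with WT in Cy5 exchanged their labels. As labelled, 8 of 20 channels correlated best with the other channel of their mouse, and after the exchange 14 of 20 did. The exchange turns every sign. Of 108 genes called on Agilent that could be joined to the one-color ABI platform, 77 (71.3%) had the opposite sign there. By the labels, the ABI arrays hold WT2 in place of WT6. The direction as labelled is also opposite to the one the study gives for Fabp7, an astrocyte and stem cell fatty acid binding protein that is no member of the set. Thus each "higher in TG" below means higher in the channels labelled TG.

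The arrays were of similar quality, with 80.2% to 88.5% of spots well above background in both channels. All 49 probes of the set were present, none was saturated, and 1 probe of Fgfr3 and 1 of Sox9 were not well above background on 1 array each. Dclk1, the gene from which the transgene derives, had a log2 ratio of -0.07 ± 0.032 (SE; false discovery rate, FDR = 0.273) with 3 of 10 arrays above 0; which part of the gene its probes cover was not examined. The mouse labelled TG4 stood apart. For 3565 genes with probes at both ends, the ratio of the 5′ probe minus that of the 3′ probe had a median of -0.18 and -0.16 on the 2 arrays with TG4, against -0.05 to 0.08 on the other 8. Its SD over genes was 0.588 and 0.641 on these arrays and 0.178 to 0.281 on the others. Leaving out TG4 under the labels removes the same 2 arrays as leaving out WT5 after the exchange, since its 2 channels stay together in both.

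Of the 35 astrocyte genes, 8 passed an FDR of 0.1 in the limma fit over the 10 arrays, where 8.19% of all genes did. In this fit, loess-normalised log2 ratios of TG over WT were tested against 0. Of the 35, 7 were higher in TG (4.05% of all genes) and 1 was lower (4.14% of all genes). The higher genes were the 3 metallothioneins Mt1, Mt2 and Mt3, the water channel Aqp4, the amino acid transporter Slc7a10, the enzyme Aldh1l1 and the neurotensin receptor Ntsr2. The lower gene was Sparcl1, which codes for a secreted matrix protein. With median centring of each array in place of loess, 6 were higher and none was lower (3.37% of all genes called), since Aqp4 and Sparcl1 did not pass. In the arrays with WT in Cy3 alone, 3 were higher and 3 lower (12.1% of all genes called), against 6 and 2 in those with WT in Cy5 alone (11% of all genes). With the WT mouse as a random block there were 7 higher and 5 lower (15.1% of all genes), and with the TG mouse 7 and 4 (12.3%). With present probes alone there were 7 higher and 2 lower, where 11.3% of 28260 genes were called. When each mouse was left out in turn, 2 to 7 were higher and 1 was lower. Mt3, Ntsr2 and Sparcl1 passed without any 1 of the 10 mice, while the other 5 each lost their calls without 1 to 9 of them. In these whole-tissue samples, a change in the number of astrocytes and a change in RNA per astrocyte cannot be told apart.

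The set did not move as a block. The median log2 ratio of the 35 genes was 0.04, and that of all genes was 0.00. Of the members, 20 of 35 had a ratio above 0 (53.0% of all genes). The median absolute log2 ratio was 0.14 in the set and 0.03 over all genes, and the median SD over arrays was 0.23 and 0.12. Both the differences and the spread between arrays were thus larger here than for a typical gene on the array. All members had present probes, while the genes on the array include some without any. These medians were not computed over genes with present probes alone. On single arrays the number of members above 0 ran from 16 to 25 of 35, and the median member from -0.04 to 0.20.

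**Figure D1:**
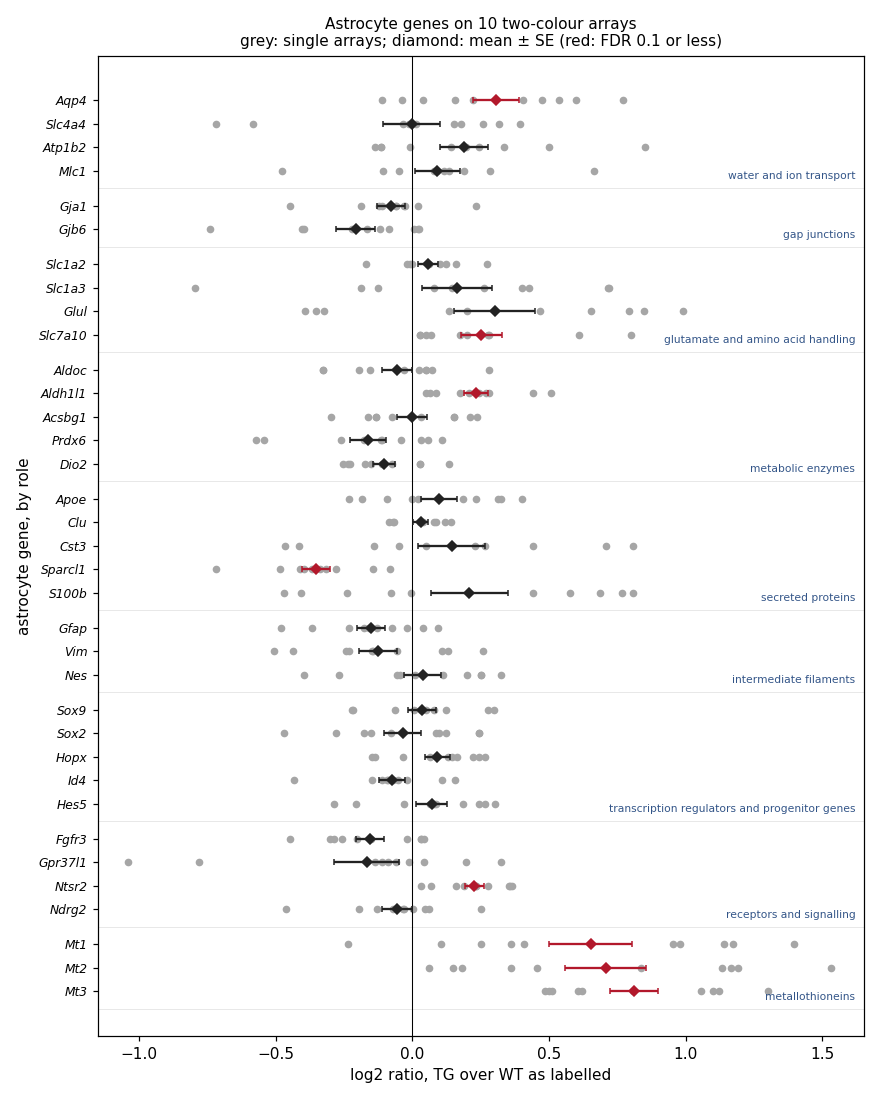
Log2 ratio of TG over WT, as labelled, of the 35 astrocyte genes on the 10 arrays, ordered by role. Grey points are single arrays and diamonds are means with their SE from limma (red where the FDR was 0.1 or less); the metallothioneins lie farthest to the right with means of 0.65 to 0.81, and Sparcl1 is the red diamond to the left of 0 at -0.35.

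Since each mouse was on 2 arrays, the 10 ratios are not independent. With 1 value per mouse, the mean of its 2 channels after loess and Aquantile normalisation, and 5 WT against 5 TG mice, only Mt3 of the 35 genes passed the FDR of 0.1 (FDR = 0.0944; 29 genes or 0.084% of all genes did). This fit had no array term, so a value per mouse also holds differences between arrays. At an unadjusted p under 0.05 there were 8 members in that fit (8.21% of all genes), and they were the 8 genes named above. All TG mice lay above all WT mice for Mt3 and Ntsr2 and all below for Sparcl1, which is 3 of 35 members where 2.12% of all genes had groups that did not overlap. After the exchange of labels these were Mt3, Sparcl1 and Aldh1l1 (1.56% of all genes), with the sign turned, and none of the 35 passed the FDR (11 genes or 0.0318% of all genes did; FDR of Mt3, 0.11). The sign was the same on all 10 arrays for 6 of the 35 (2.3% of all genes), namely Mt2, Mt3, Ntsr2, Aldh1l1 and Slc7a10 above 0 and Sparcl1 below 0.

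The metallothioneins had the largest differences of the set, and all 3 passed the test. Mt1 and Mt2 are made by astrocytes and other cells and are induced by zinc, glucocorticoids and inflammation, while Mt3 is the brain form. They lie close together on mouse chromosome 8. Because the 3 genes moved together, the 250 bases before their annotated starts are shown, on the plus strand of GRCm38.p6, from RefSeq: Mt1 at chr8:94178839-94179088, Mt2 at chr8:94172368-94172617 and Mt3 at chr8:94152357-94152606. Capitals mark matches on either strand to the core of the metal response element, which the zinc-sensing factor MTF1 binds, spelled TGCACNC or TGCGCNC.
Mt1: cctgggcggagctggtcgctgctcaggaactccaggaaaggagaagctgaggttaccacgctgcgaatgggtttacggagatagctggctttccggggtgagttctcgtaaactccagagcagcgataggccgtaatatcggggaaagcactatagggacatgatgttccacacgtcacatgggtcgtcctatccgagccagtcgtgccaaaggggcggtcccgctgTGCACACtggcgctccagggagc
Mt2: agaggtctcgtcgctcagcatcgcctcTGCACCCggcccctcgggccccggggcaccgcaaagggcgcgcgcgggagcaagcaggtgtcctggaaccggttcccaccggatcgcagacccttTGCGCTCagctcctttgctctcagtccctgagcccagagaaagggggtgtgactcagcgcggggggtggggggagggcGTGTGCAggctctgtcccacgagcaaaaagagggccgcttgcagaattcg
Mt3: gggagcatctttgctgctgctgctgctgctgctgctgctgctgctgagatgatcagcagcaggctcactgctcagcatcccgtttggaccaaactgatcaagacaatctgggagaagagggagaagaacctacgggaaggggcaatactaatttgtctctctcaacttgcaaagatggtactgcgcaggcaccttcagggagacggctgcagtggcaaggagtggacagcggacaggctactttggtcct
Mt2 held 3 matches, 223 and 128 bases before the start on the plus strand and 50 bases before it on the minus strand. Mt1 held 1 match, 23 bases before the start, and Mt3 held none in this window. Bases after the annotated starts or farther upstream were not searched, so these counts are not the number of elements of a gene. Of 32851 promoters of the same length, 21.4% held at least 1 match and 1.26% at least 3. A match describes these letters alone.

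In the TG mice, Mt3 had a normalised log2 signal of 9.44, 9.62, 9.50, 9.71 and 9.33 from TG1 to TG5, and in the WT mice of 9.10, 8.45, 8.46, 8.65 and 8.88 in the order WT1, WT3, WT4, WT5 and WT6. The groups did not overlap, and WT1 came nearest to the TG mice. The group means were 9.52 ± 0.15 in TG and 8.71 ± 0.28 in WT (SD, n = 5 each). The ratio was above 0 on all 10 arrays, from 0.49 to 1.3 with a median of 0.71, and its mean was 0.81 ± 0.087 (SE), a 1.75-fold difference (FDR = 0.00297).

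Mt2 had signals of 12.09, 12.42, 12.23, 11.91 and 12.04 in TG1 to TG5 and of 11.99, 10.85, 10.92, 11.49 and 11.89 in the WT mice in the same order. WT3 and WT4 were about 1 log2 unit below WT1 and WT6, and WT1 lay above TG4, so the groups overlapped. The mean ratio was 0.71 ± 0.15 (FDR = 0.031; 1.63-fold), above 0 on all 10 arrays. It ran from 0.06 on the array of WT1 and TG4 to 1.53 on that of WT4 and TG2.

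Mt1 followed the same mice, with 11.36, 11.55, 11.37, 11.16 and 11.35 in TG1 to TG5 and 11.27, 10.20, 10.21, 10.68 and 11.17 in WT1 and WT3 to WT6. Its mean ratio was 0.65 ± 0.15 (FDR = 0.043; 1.57-fold), above 0 on 9 of 10 arrays and -0.23 on the array of WT1 and TG4. The spread of Mt1 and Mt2 within the WT group (SD 0.51 and 0.53) was more than their spread within the TG group (SD 0.14 and 0.20). Both calls were lost without WT3, WT4 or WT5, and that of Mt1 also without TG1, TG2, TG3 or TG5. Without WT3 the ratio of Mt2 was 0.59 (FDR = 0.156) and that of Mt1 0.55 (FDR = 0.194), and without WT4 they were 0.55 (FDR = 0.136) and 0.50 (FDR = 0.173). Without WT5 the sizes stayed at 0.73 (FDR = 0.1002) and 0.65 (FDR = 0.133), and the FDR of Mt1 without each of the 4 TG mice was 0.105 to 0.117. Mt3 remained below the FDR limit without either mouse, at 0.75 (FDR = 0.0179) without WT3 and 0.74 (FDR = 0.0327) without WT4. After the exchange of labels the low mice are those then named TG2 and TG3, with 10.34 and 10.06 for Mt1, and the others lie from 10.68 to 11.47.

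**Figure D2:**
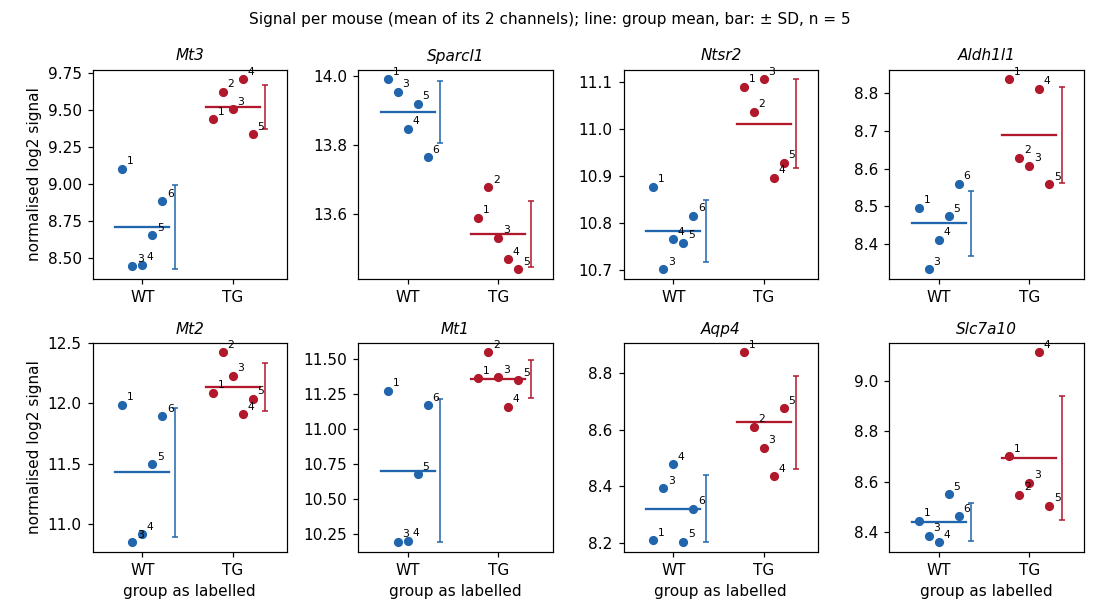
Normalised log2 signal of the 8 called astrocyte genes in each WT (blue) and TG (red) mouse as labelled, where a point is the mean of the 2 channels of 1 mouse and its number is the mouse number. Horizontal lines are group means and bars ± 1 SD (n = 5); the groups are apart for Mt3, Sparcl1 and Ntsr2, and WT3 and WT4 are the lowest points of Mt1 and Mt2.

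On ABI, a one-color platform with 1 mouse per array, Mt3 was the member with a probe that could be named. Its vsn-normalised log2-like signal was 13.16, 12.61, 12.82, 12.73 and 13.22 in WT1 to WT5 and 12.40, 13.37, 12.45, 12.46 and 12.95 in TG1 to TG5. The groups overlapped, with TG2 the highest of all 10 mice and TG1, TG3 and TG4 the lowest. The difference of TG minus WT was -0.18 ± 0.21 (SE; n = 5 each; FDR = 0.999 by limma over 33012 probes, of which 0.00909% were called). This sign is opposite to that on Agilent as labelled. The paper describes batches of ABI arrays, hybridized on different days, whose signal distributions differed. No batch term was in this fit.

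Among the genes for water and ion transport, Aqp4 was called. It codes for the water channel of astrocyte endfeet. Its signals were 8.87, 8.61, 8.54, 8.44 and 8.68 in TG1 to TG5 and 8.21, 8.39, 8.48, 8.20 and 8.32 in WT1 and WT3 to WT6. TG4 was the lowest TG mouse and lay below WT4, which was the only overlap. The mean ratio was 0.30 ± 0.084 (FDR = 0.0672; 1.24-fold) and was above 0 on 8 of 10 arrays, with both arrays of TG4 below 0 at -0.04 and -0.11. Without TG4 it was 0.40 (FDR = 0.0353), and it also passed without WT1 (FDR = 0.0993). Without each of the other 8 mice it did not pass, with ratios from 0.22 without TG1 (FDR = 0.21) and 0.23 without WT5 (FDR = 0.225) to 0.36 without WT4 (FDR = 0.148). The 3 probes of Aqp4 had mean ratios of 0.42, 0.31 and 0.19, and the 5′ one was the smallest.

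The other 3 transport genes did not pass the test. Slc4a4, the sodium bicarbonate cotransporter, had a mean ratio of -0.0030 ± 0.10, made up of -0.58 and -0.72 on the arrays of TG4 and values from -0.03 to 0.39 on the others. Its ratio was 0.16 (FDR = 0.139) without TG4. Atp1b2, a subunit of the sodium pump, went the other way in that mouse, with ratios of 0.50 and 0.85 on the arrays of TG4 and a mean of 0.19 ± 0.089 (FDR = 0.279). Mlc1, a membrane protein of endfeet, had 0.09 ± 0.083 (FDR = 0.648).

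Of the 2 gap junction genes, neither passed. Both code for connexins, the channel proteins that couple astrocytes. Gjb6 had a ratio of -0.21 ± 0.070, above the limit (FDR = 0.119), and -0.12 (FDR = 0.244) without TG4, where its 2 arrays had -0.39 and -0.74. Gja1 had -0.08 ± 0.050 (FDR = 0.462).

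The glutamate transporters were not called. Slc1a2, the main glutamate transporter GLT-1 of the adult forebrain, had signals of 7.71, 7.57, 7.56, 7.75 and 7.54 in TG1 to TG5 and of 7.53, 7.48, 7.52, 7.74 and 7.57 in the WT mice. Its ratio of 0.06 ± 0.037 (FDR = 0.462) was above 0 on 6 of 10 arrays. The probes of Slc1a2 had mean raw signals of 387 and 104, the latter not far above the negative controls. For Slc1a3, the transporter GLAST, the signals were 10.84, 11.10, 11.30, 11.55 and 10.98 in TG and 11.25, 10.79, 10.81, 10.91 and 11.19 in WT. These groups overlapped widely, and single arrays ran from -0.79 (WT6 and TG1) to 0.72 (WT4 and TG3, WT3 and TG4), with a mean of 0.16 ± 0.13 (FDR = 0.579). Glul, glutamine synthetase, had a ratio of 0.30 ± 0.15, with an SD over arrays of 0.53 (FDR = 0.3). It fell to 0.20 (FDR = 0.732) without WT3 and 0.15 (FDR = 0.736) without WT4, and without WT6 it was 0.47 and passed (FDR = 0.0841).

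Slc7a10, a carrier of small neutral amino acids such as serine, was called at 0.25 ± 0.075 (FDR = 0.0844; 1.19-fold). Its signals were 8.70, 8.55, 8.59, 9.11 and 8.51 in TG1 to TG5 and 8.45, 8.39, 8.36, 8.55 and 8.46 in the WT mice. TG4 stood above all other mice, and TG2 and TG5 lay at or below WT5. All 10 arrays were above 0, but the arrays of TG4 had 0.61 and 0.80 and the others 0.03 to 0.28. Without TG4 the ratio was smaller, 0.14, and passed (FDR = 0.0947). Without each of the other 9 mice it ran from 0.21 to 0.29 and did not pass, with an FDR of 0.112 (without WT6) to 0.211 (without WT4).

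Aldh1l1 was the metabolic enzyme that passed. It codes for a folate enzyme used widely as an astrocyte marker. The signals were 8.84, 8.63, 8.61, 8.81 and 8.56 in TG1 to TG5 and 8.50, 8.33, 8.41, 8.47 and 8.56 in WT1 and WT3 to WT6, so that TG5 and WT6 met and the other mice were apart. The mean ratio was 0.23 ± 0.045 (FDR = 0.0247; 1.18-fold), with arrays from 0.05 to 0.51, and it was not called without WT4 (0.24, FDR = 0.12).

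The other 4 enzymes were not called. Prdx6, a peroxiredoxin, had -0.16 ± 0.068 (FDR = 0.214), which came from 1 of its 3 probes. That 5′ probe had a mean of -0.46 with -1.80 and -1.76 on the arrays of TG4, while the other probes had -0.05 and 0.02. The probe with 0.02 had a mean raw signal of 69, not far above the negative controls. The 5′ probe had 1432 and the probe with -0.05 had 2390. Dio2, the deiodinase that activates thyroid hormone, had -0.10 ± 0.040 (FDR = 0.173). Aldoc, aldolase C, had -0.06 ± 0.056 and Acsbg1, an acyl-CoA synthetase, had -0.0014 ± 0.053.

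Among the secreted proteins, Sparcl1 was lower in TG. It codes for hevin, an astrocyte protein that promotes synapse formation. The signals were 13.59, 13.68, 13.53, 13.47 and 13.44 in TG1 to TG5 and 13.99, 13.95, 13.85, 13.92 and 13.76 in the WT mice. Every TG mouse was below every WT mouse, with WT6 and TG2 the nearest pair. The mean ratio was -0.35 ± 0.052 (FDR = 0.00966; 1.28-fold lower) and lay between -0.72 and -0.08 on all 10 arrays. Both of its probes fell on the same side, with -0.39 and -0.32. With median centring in place of loess the ratio was -0.18 and was not called (FDR = 0.637).

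The other secreted proteins were not called. Apoe, the main lipid carrier of the brain, had 0.10 ± 0.065 (FDR = 0.486), Clu, clusterin, 0.03 ± 0.028 (FDR = 0.663), and Cst3, the protease inhibitor cystatin C, 0.14 ± 0.12 (FDR = 0.622). S100b, a calcium-binding protein, had 0.21 ± 0.14 (FDR = 0.494), with an SD over arrays of 0.50.

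The intermediate filament genes were not called. Gfap, the filament that rises in reactive astrocytes, had signals of 7.06, 7.03, 7.07, 6.72 and 7.10 in TG1 to TG5 and 7.06, 7.19, 7.20, 7.19 and 7.10 in the WT mice. TG4 was far below the other 9 mice, which lay between 7.03 and 7.20. Gfap had 1 probe, with a mean raw signal of 138 and no background correction. The 95th percentile of the negative controls ran from 40 in Cy5 to 80 in Cy3, so this signal was not far above them. The ratio of Gfap was -0.15 ± 0.052 (FDR = 0.128), below 0 on 8 of 10 arrays, and -0.08 (FDR = 0.342) without TG4. Vim, vimentin, had -0.13 ± 0.070 (FDR = 0.371). Nes, nestin, had 0.04 ± 0.068 (FDR = 0.859), and its signal per mouse ranged widely in both groups, from 9.54 to 11.05 in WT and from 9.69 to 10.78 in TG. With 1 value per mouse the SE of its ratio was 0.275. Such values also hold differences between arrays, which were not separated from those between mice.

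No transcription regulator was called. The ratios were 0.09 ± 0.045 for Hopx, 0.07 ± 0.057 for Hes5, 0.04 ± 0.051 for Sox9, -0.04 ± 0.067 for Sox2 and -0.08 ± 0.047 for Id4, with an FDR of 0.3 or more. Sox2, Hopx and Hes5 are also genes of the adult hippocampal stem cells, and Sox9 drives the glial fate. The 3 probes of Sox9 had -0.08, 0.05 and 0.15.

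Ntsr2 was the receptor that passed. It codes for the low-affinity neurotensin receptor, which astrocytes express. The signals were 11.09, 11.04, 11.11, 10.90 and 10.93 in TG1 to TG5 and 10.88, 10.70, 10.77, 10.76 and 10.82 in WT1 and WT3 to WT6. TG4 and WT1 were the nearest pair, and the groups did not overlap. The mean ratio was 0.23 ± 0.036 (FDR = 0.0132; 1.17-fold), with all 10 arrays between 0.03 and 0.37 and its 2 probes at 0.23 and 0.22.

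Fgfr3, a fibroblast growth factor receptor, had the lowest FDR of the uncalled members (0.108), at -0.16 ± 0.050, and a ratio of -0.10 (FDR = 0.308) without TG4. It passed under 7 other settings, among them the dye orientation as a term (FDR = 0.0516). Its 3 probes had -0.29, -0.09 and -0.08, and the 5′ one had -1.02 and -0.77 on the arrays of TG4. Gpr37l1, a receptor for prosaposin-derived peptides, had -0.17 ± 0.12 (FDR = 0.527) and 0.02 (FDR = 0.945) without TG4, whose arrays had -0.78 and -1.04. Ndrg2, a cytosolic astrocyte protein, had -0.06 ± 0.054 (FDR = 0.682).

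The values of WT3 and WT4 stood out in many members, which is given without a test because it was noticed in these values. After the exchange of labels, the channels of these mice are regrouped as TG2 and TG3. WT3 and WT4 were the 2 lowest mice for 11 of 35 members, that is 31.4% of them, where this held for 7.14% of all genes. These were Mt1, Mt2, Mt3, Glul, S100b, Cst3, Apoe, Slc1a2, Slc1a3, Slc7a10 and Aldh1l1. S100b had 8.78 and 8.77 in these mice and 9.33 to 9.76 in the other 8, and Glul had 13.06 and 13.07 against 13.48 to 14.01. Cst3 had 13.87 and 13.82 against 14.10 to 14.42. The array ratios of S100b were 0.58, 0.69, 0.77 and 0.81 on the 4 arrays with WT3 or WT4 and from -0.47 to -0.01 on the 4 arrays with WT1 or WT6. Those of Glul were 0.65 to 0.99 on the former and -0.39 to 0.13 on the latter. On the arrays of WT5 with TG3 and with TG1, S100b had -0.24 and 0.44 and Glul 0.20 and 0.47.

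TG4 was the lowest or the highest mouse for 15 of 35 members (42.9%), a share near that over all genes (35.4%). It was lowest for Gpr37l1, Slc4a4, Prdx6, Aldoc, Gjb6, Gfap and Fgfr3 and highest for Atp1b2, Slc7a10, Slc1a3, Slc1a2, Gja1, Hopx, Dio2 and Mt3. Without TG4, 8 of the 35 members passed the FDR, where 4.79% of all genes did, and they were the same 8 genes.

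**Figure D3:**
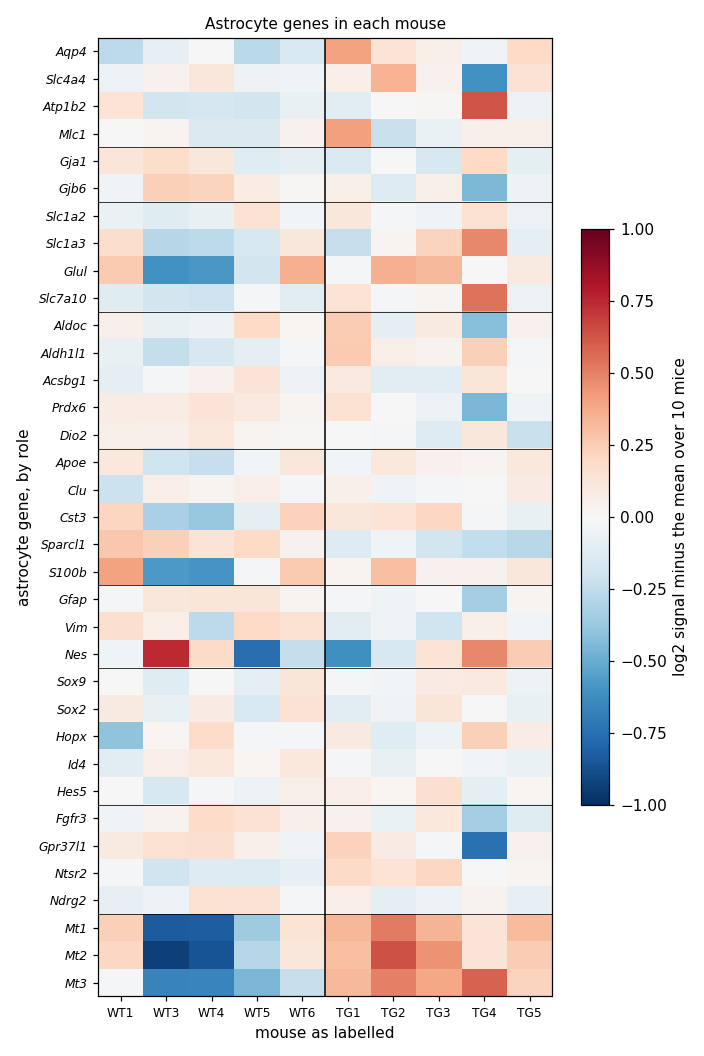
Normalised log2 signal of each astrocyte gene in each mouse minus the gene's mean over the 10 mice, with genes in rows by role and mice in columns as labelled (WT left of the line, TG right; red is above the mean and blue below it, and the scale ends at -1 and 1). The columns of WT3 and WT4 are blue for the metallothioneins, Glul, S100b and Cst3, and the column of TG4 holds the darkest blue cells for Gpr37l1 and Slc4a4 and red cells for Atp1b2 and Slc7a10.

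Of the members, 7 had present probes more than 500 bases apart along the gene, namely Aqp4, Fgfr3, Gjb6, Gpr37l1, Id4, Prdx6 and Sox9. On both arrays of TG4 the 5′ probe had the lower ratio for all 7, with differences of -0.10 to -1.83. Of the probes in these pairs, the 3′ probe of Prdx6 had a mean raw signal of 69. The 5′ probes of Sox9 and Fgfr3 had 80 and 111, and the other probes had 343 to 2897. The part of low signal in these differences was not tested. On the other 8 arrays the difference ran from -0.60 to 0.47 and had both signs on each of them but the one of WT5 and TG3, where all 7 were below 0. For Gpr37l1 the difference was -1.22 and -1.11 with TG4 and from -0.47 to 0.32 without it. The part of this difference between probes in the low values of TG4 was not tested for members with 1 probe.

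**Figure D4:**
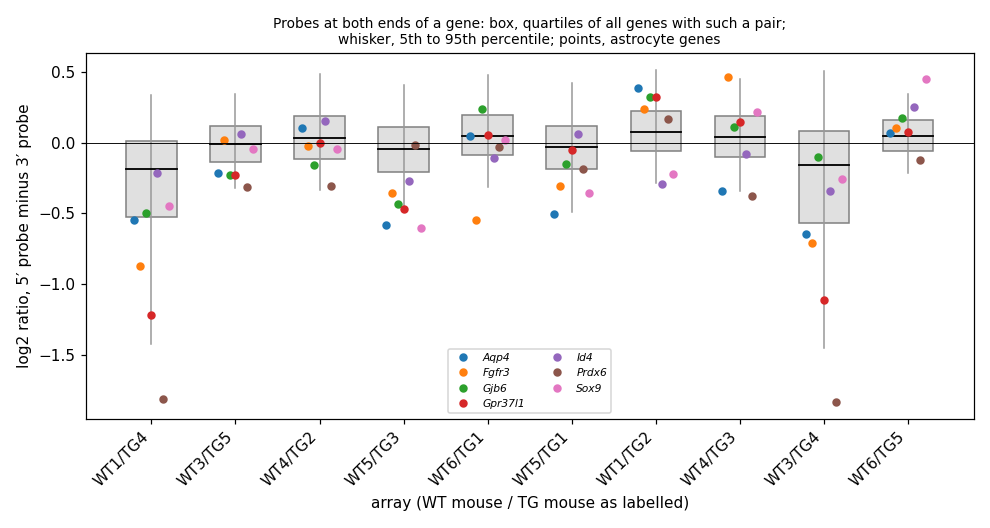
Log2 ratio of the 5′ probe minus that of the 3′ probe on each array, named by its WT and TG mouse as labelled. Boxes are quartiles and whiskers the 5th to 95th percentile of 3565 genes, black lines their medians, and points the 7 astrocyte genes with such probes. The boxes and whiskers reach lowest on the 2 arrays with TG4, where Gpr37l1 and Prdx6 lie below -1. The 3′ probe of Prdx6 had a mean raw signal of 69, not far above the negative controls.

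Under 26 other settings each of the 8 called genes kept its sign. The exchange of labels, which turns every sign, is not among these settings. In several of the 26 the mean ratio could not change, so that they bear on the FDR alone. These were 1 value per mouse, the dye term, the single channels, both random blocks and present probes alone. For genes with 1 probe the choice of the brightest probe could not change it either. The dye term and the single channels gave the same ratio and FDR. Mt3 passed the FDR in 25 of the 26, Ntsr2 in 24, Sparcl1 and Aldh1l1 in 23, Mt2 in 20, Mt1 in 16, Aqp4 in 13 and Slc7a10 in 12. The setting in which Mt3 did not pass was 1 value per mouse with the mouse number as a replicate block.

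**Figure D5:**
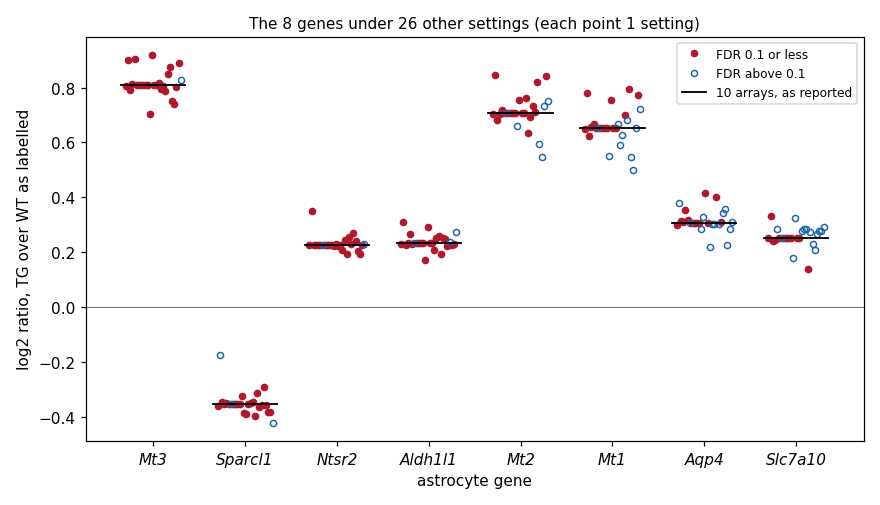
Log2 ratio of TG over WT, as labelled, of the 8 called astrocyte genes under 26 other settings, where each point is 1 setting (filled red with an FDR of 0.1 or less, open blue above it) and the black line is the value over the 10 arrays. All points of a gene lie on one side of 0, and open points are most frequent for Aqp4 and Slc7a10. Settings whose design leaves the mean ratio unchanged are among the points. The exchange of labels, which turns every sign, is not shown.

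Other genes of astrocytes and markers of other cells were taken from lists. Of 39 measured further astrocyte genes that are not members, 6 were higher and 4 lower in TG as labelled, with a median log2 ratio of 0.04. This was 25.6% of the list, where 8.19% of all genes were called. With 1 value per mouse Fabp7 alone of the 10 passed, and without TG4 the list had 6 calls (15.4%, where 4.79% of all genes were called). Fabp7 was highest among them by its test, at 0.80 ± 0.093 (FDR = 0.00353; FDR = 0.00965 with 1 value per mouse), close to the ratio of Mt3. Lcat, a cholesterol-esterifying enzyme, had 0.31 ± 0.043 (FDR = 0.0078; 0.144 with 1 value per mouse), and F3, tissue factor, had -0.18 ± 0.036 (FDR = 0.0293; 0.28 with 1 value per mouse). Fabp7 and Lcat passed without any 1 mouse, and F3 did not pass without TG3, WT3 or WT4. Of 30 measured genes of reactive astrocytes, 1 was higher (Serpina3n, a protease inhibitor, at 0.25 ± 0.076, FDR = 0.0937) and 1 lower (Ptgs2, a cyclooxygenase, at -0.23 ± 0.071, FDR = 0.093), with a median of -0.01. These 2 calls are 6.67% of the list, a share near that of all genes (8.19%). Neither gene passed without TG4 (FDR = 0.247 and 0.245) or with 1 value per mouse (FDR = 0.543 and 0.412).

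Of 67 measured markers of other cell types, 9 passed (13.4%, where 8.19% of all genes did), 4 of them higher and 5 lower, and without TG4 the lists had 7 calls (10.4%, against 4.79% of all genes). Of 10 measured oligodendrocyte genes, Mbp, myelin basic protein, was lower at -0.51 ± 0.15 (FDR = 0.0839). Its ratio was -0.26 (FDR = 0.0512) without TG4, and it did not pass without each of 8 of the other 9 mice. The summed signal of the list was 12560 to 15455 in the WT mice and 8629 to 13564 in the TG mice. Of 10 neuron genes, the tubulin Tubb3 was higher at 0.39 ± 0.091 (FDR = 0.0422), and the sums were 19812 to 21615 in WT and 16707 to 21552 in TG. Of 11 microglia genes, Tmem119 was higher and P2ry12 and Itgam were lower (27.3% of the list; without TG4, P2ry12 alone), with sums of 2967 to 3725 and 3332 to 3422. Calb1 of 7 hippocampal neuron genes and Igfbp2 of 9 meningeal genes were higher, and Cldn5 of 8 vessel genes and Alas2 of 2 blood genes were lower. None of 8 choroid plexus and 2 ependymal genes was called. The summed vessel list lay at 1484 to 1560 in WT and 1326 to 1493 in TG. With 1 value per mouse, no gene of these other cell types passed the FDR. Each of the 9 called markers lost its call without 3 to 10 of the 10 mice, left out in turn. The part of other cells in the differences of the astrocyte genes was not tested.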

How the data were processed

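RNA of 5 WT and 5 TG mice on each of 2 platforms was analysed, on 10 Agilent arrays and 10 ABI arrays. By the labels, the ABI arrays hold WT2 in place of WT6. AFF and LGTC samples were not analysed here. The 80 Illumina columns named by chip position were not used, since the labels do not pair them with mice. Per the file headers, the deposited Agilent intensity values are mean and median pixel intensities per spot and dye, and the log10 ratios are those of the scanner software after its own background and dye correction. The authors deposited the ABI intensities without normalization. The submitters' processing notes name limma.

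R 4.3.3 was used with limma 3.58.1 and statmod 1.5.0. Log2 ratios of the uncorrected intensities went through loess, array by array, and were turned to TG over WT. Spots of a probe and probes of a gene were averaged. The reference table named 22214 probes through their accession and the descriptions in the files a further 1968, and 16992 probes had no symbol. An intercept was fitted with limma, and the FDR was computed over all genes by Benjamini-Hochberg adjustment, with 0.1 as the limit. ABI signals were normalized with vsn, programmed here with trimming at 0.9, and the genotype was fitted. A probe was present where both channels of all arrays were above the 95th percentile of the 314 negative controls. Probe pairs along a gene were 500 to 100000 bases apart by the coordinates in the files, whose build is not given in the sources used here. The number of arrays limits the precision.

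The alternatives covered background correction, normalization, pixel statistic, scanner ratio, outlier spots, 1 value per mouse, dye, block and probe choices, and leaving out each mouse. Scripts were tested on simulated data. All 35 members were named, with values per mouse for those past the FDR and for Gfap, Aqp4, Slc1a2 and Slc1a3, and from each other list at most the 3 called genes with the smallest P value; other values per mouse were chosen after they were seen. The members, lists and tests were chosen with earlier results of these data known.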

Additional observations from a re-analysis of the deposited data

Results flagged for a closer look

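In 107 groups of 5 or 10 values, of which chance alone would single out about 1 in 20, 6 had a sample far from the others. The groups are not independent, since the arrays and the mice of a gene share their measurements. TG4 was such a mouse for 3 genes. It was high for Atp1b2 (log2 signal 10.30, next 9.68) and low for Gfap (6.72, next 7.03) and Gpr37l1 (10.001, next 10.73). The arrays of this mouse also had the widest spread between 5′ and 3′ probes, with an SD over 3565 genes of 0.588 and 0.641 against 0.178 to 0.281; its part in these values was not tested. WT1 was low for Clu (12.27, next 12.47) and WT4 for Vim (8.65, next 8.97). The array of WT4 and TG2 was low for Id4, with a log2 ratio of -0.43 (next -0.15).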

How the results depend on the processing

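The count of 8 astrocyte genes past the FDR stayed within 1.5 times (6 to 12) under 18 of 28 other settings, background correction, normalization, dye term, random blocks, probe choice and an FDR of 0.05 included. The random blocks gave the highest counts, 12 and 11, with estimated block correlations below 0. With 1 value per mouse the count was 1, with the mouse number as a replicate block in that fit 0, and after the exchange of labels 0. For the mouse numbers that WT and TG share, the correlations of deviations ran from -0.21 to -0.08 on Agilent as labelled and from -0.24 to 0.37 on ABI. The Agilent values rest on the labels in doubt and also hold differences between arrays. They cannot show whether the numbers pair the Agilent mice. Without each mouse in turn the count ran from 3 to 8; it was 5 without TG1, TG2, TG3 or TG5 (2.48% to 3.66% of all genes), 4 without WT3 or WT5 (1.11% and 2.22%), and 3 without WT4 (0.973%). The difference of Mt3 on ABI stayed below 0 and uncalled under all 13 other settings, from -0.34 to -0.10 without each mouse and at -0.18 with the replicate block.

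Apart from the exchange of labels, which turns every sign, the signs of 14 uncalled genes turned. With median centring these were Slc4a4 (0.067), Gja1 (0.026), Aldoc (0.11), Acsbg1 (0.11), Sox2 (0.050), Id4 (0.017) and Ndrg2 (0.082), and with scaling Slc4a4 (0.012) and Acsbg1 (0.0012). Within the arrays with WT in Cy3 they were Slc4a4 (0.065), Mlc1 (-0.023), Slc1a3 (-0.030), Aldoc (0.042), Sox9 (-0.024) and Hopx (-0.0086), and within those with WT in Cy5 Acsbg1 (0.049), Cst3 (-0.024), Nes (-0.069), Sox2 (0.040), Id4 (0.024) and Ndrg2 (0.0099). The scanner software's ratio of Sox9 was -0.0045, and the replicate block gave 0.013 for Acsbg1 and 0.00023 for Sox2. Without single mice, Slc4a4 ran from -0.085 to 0.16, Acsbg1 from -0.050 to 0.055, Nes from -0.024 to 0.10, Sox9 from -0.0017 to 0.10, Sox2 from -0.11 to 0.036 and Gpr37l1 from -0.27 to 0.019. The cause of these turns was not tested. All Agilent arrays bear the same scan date, so no fit with the date as a block could be made for them. The batches of ABI arrays that the paper describes were not a term in any ABI fit.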
